A study of Gallus gallus with 2 samples.

Results

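The skeletal muscle programme of the chick limb bud was followed through 9 genes, PAX3, PAX7, LBX1, MYF5, MYOD1, MYOG, MEF2C, TMEM8C (myomaker) and ACTC1. They were chosen by symbol, ignoring case, among 16736 genes measured by RNA sequencing. Of the 9, 7 matched by symbol. PAX7 is carried in the files under the older symbol Pax-7, a synonym in RefSeq, and is described beside them but left out of the counts unless it is named. No row carries the symbol LBX1 or a RefSeq synonym of it, and this gene was not analysed here.

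The samples were pieces of limb bud from chick embryos at Hamburger-Hamilton stage 22, day 4 of incubation, held for 4 h at 37 °C in culture. One library came from pieces given thalidomide at 40 µg/ml, the sedative known for limb malformations, and 1 from pieces given the vehicle, 5% DMSO. The labels do not say whether the thalidomide pieces also received DMSO, how many embryos were pooled, or in what proportion wing and leg buds were taken. TBX5 and TBX4, which mark the forelimb and the hindlimb, were both detected, with 26.4 and 18.5 FPKM with thalidomide, against 22.5 and 16.4 FPKM with vehicle. With 1 library per treatment there is no spread between replicates, and no difference below has a replicate check or a p-value.

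Muscle of the limb does not arise from limb bud mesenchyme itself. Precursors that express the paired box factor PAX3 leave the somites, enter the bud and gather into dorsal and ventral masses, where the myogenic basic helix-loop-helix factors MYF5 and MYOD1 commit them to muscle. MYOG and MEF2 factors then drive differentiation, myomaker lets myoblasts fuse, and the sarcomeric actins, of which ACTC1 is the early embryonic form in skeletal muscle, are built into fibres.

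Values are FPKM, that is, fragments per unit of transcript length and of sequencing depth, and each has a deposited lower and upper limit of confidence. These limits hold the error of counting and of assigning fragments inside 1 library, and no more. Fragments inferred from the limits summed to 23280002 with thalidomide and 23361629 with vehicle, whereas the FPKM values summed to 384280 and 426632. Fragments per FPKM thus differed between the libraries, so a gene's fragments and its FPKM can give unlike ratios. The inferred sums are not the depth by which FPKM was divided, which is not given. Log2 ratios are thalidomide over vehicle with 1 added to each FPKM, which understates changes of low genes, and the ± beside it is an error computed from the limits of both libraries. All 7 genes and PAX7 passed the filter of 1 FPKM in at least 1 library, as did 10905 genes in all, whose median log2 ratio was −0.05 with quartiles of −0.19 and 0.11. In bulk tissue, fewer cells of a type and less RNA per cell cannot be told apart.

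The genes did not all differ in the same direction. ACTC1, TMEM8C and MYOD1 were lower with thalidomide and their deposited limits did not overlap between the libraries, whereas PAX3 and MYOG had slightly higher values with overlapping limits. Of the 7 genes, 3 were therefore lower beyond their limits and 0 higher, against a background of 26.9% of all genes kept that were lower in this way and 15.5% that were higher. The median of the 7 was −0.21. With 1 added to each FPKM, none of the 7 was 1.5-fold lower or higher, whereas 0.972% and 0.954% of all genes kept were. Without the added 1, TMEM8C was 1.54-fold lower, but the share of all genes on that scale is not given here. Counts over so few genes cannot be set apart from the background, so the values of each gene follow.

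**Figure D1:**
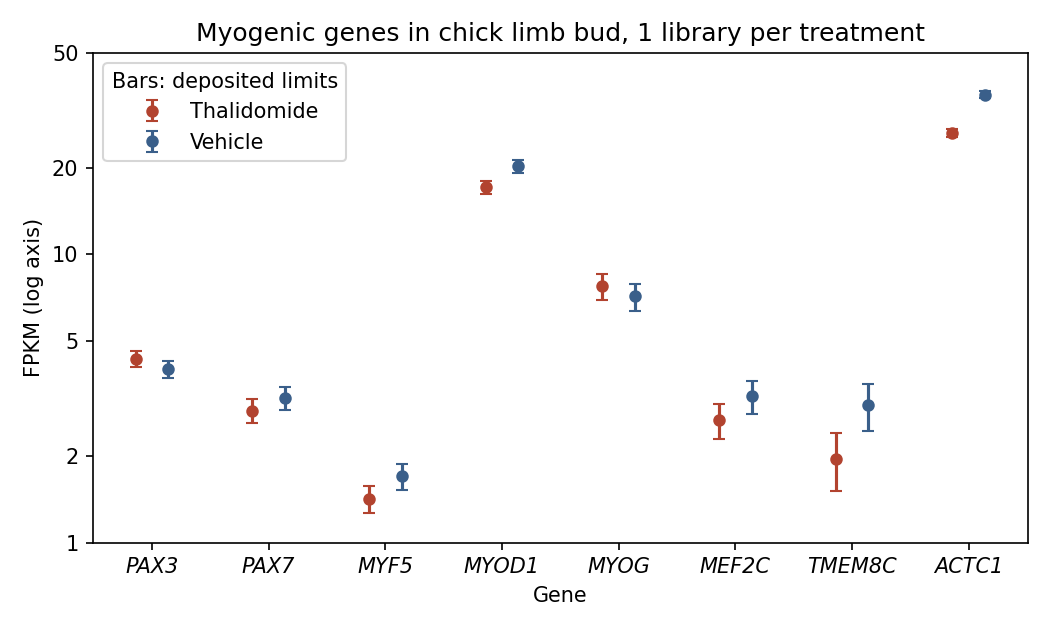
FPKM of each gene (log axis) in the thalidomide library (red, left of each pair) and the vehicle library (blue, right), with bars for the deposited confidence limits; there is 1 library per treatment. The limits are apart for MYOD1 (17.1 with thalidomide, 20.2 with vehicle), TMEM8C (1.96 and 3.002) and ACTC1 (26.4 and 35.8), and overlap for the other genes.

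PAX3, the factor of migrating precursors, had 4.34 FPKM with thalidomide (limits 4.07 to 4.61), against 4.01 FPKM with vehicle (3.74 to 4.28). The thalidomide value was the higher, with overlapping limits and a log2 ratio of 0.09 ± 0.05. It rested on about 1025 and 857 fragments. PAX7, its paralogue, which also marks muscle progenitors, had 2.87 FPKM with thalidomide (2.60 to 3.15), against 3.18 FPKM with vehicle (2.88 to 3.48). Its limits overlapped too and its log2 ratio was −0.11 ± 0.07. In galGal4, the assembly named in the submitters' processing notes, PAX3 lies on chromosome 9 from 7357518 to 7422566 and PAX7 on chromosome 21 from 4442610 to 4530774.

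Both PAX genes are also used by neural crest cells and their glial and pigment derivatives, so their levels may not be those of muscle precursors alone. SOX10, a factor of neural crest and glia, had 3.59 FPKM with thalidomide and 3.33 with vehicle (0.09 ± 0.07). MITF, the pigment cell factor that other cells also use, had 10.8 FPKM with thalidomide and 7.52 with vehicle (0.48 ± 0.05). Limits did not overlap for MITF and overlapped for SOX10, as for PAX3. Other markers of the same lists had the opposite sign, among them the pigment gene PMEL (−0.26 ± 0.08) and the neuronal genes TUBB3 (−0.28 ± 0.04) and ELAVL4 (−0.32 ± 0.08), all lower beyond their limits. Their part in the PAX3 and PAX7 values was not tested.

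Of the commitment factors, MYOD1 was the more abundant. It had 17.1 FPKM with thalidomide (16.2 to 18.04), against 20.2 FPKM with vehicle (19.2 to 21.3). The limits were 1.12 FPKM apart and the log2 ratio was −0.23 ± 0.05, which makes MYOD1 1.17-fold lower on the FPKM + 1 scale. MYF5 had 1.42 FPKM with thalidomide (1.26 to 1.58), against 1.70 FPKM with vehicle (1.52 to 1.87). The ratio of MYF5, −0.16 ± 0.07, had the same sign as that of MYOD1, but its limits overlapped. When the libraries were brought to a common FPKM total (the rescaling below), the log2 ratio of MYOD1 was −0.09 ± 0.05 and its limits also overlapped.

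MYF5 (chromosome 1, 39931917 to 39937449) lies 3234 bases from the end of MYF6 (39927239 to 39928682), the related myogenic factor known as MRF4. MYF6 had 6.001 FPKM with thalidomide and 6.66 with vehicle (−0.13 ± 0.13), with overlapping limits. Per length, the level of MYF6 was above that of MYF5 in both libraries. Inferred fragments ran the other way. MYF5 had about 334 with thalidomide and 370 with vehicle, and MYF6 about 188 and 206. The order of these 2 genes thus rests on the transcript lengths used for FPKM. MYOD1 lies on chromosome 5 from 11578793 to 11582278.

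MYOG, or myogenin, marks myoblasts that have begun to differentiate. It had 7.76 FPKM with thalidomide (6.97 to 8.54), against 7.15 FPKM with vehicle (6.38 to 7.92). The thalidomide value was the higher, the limits overlapped and the log2 ratio was 0.10 ± 0.09 (chromosome 26, 960278 to 964046). MEF2C, the MADS box partner of the myogenic factors, had 2.66 FPKM with thalidomide (2.29 to 3.02), against 3.21 FPKM with vehicle (2.80 to 3.63). Its limits overlapped and its ratio was −0.21 ± 0.10 (chromosome Z, 60141410 to 60260421). MYOG and MEF2C thus had ratios of opposite sign, neither beyond its limits.

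MEF2C is also expressed by endothelium. Of the 6 endothelial markers examined, 5 passed the filter, 4 were lower and 1 higher beyond their limits, and none was listed at 0. Over all genes kept, 26.9% were lower in this way and 15.5% higher. The summed level of the endothelial markers was 35.7 FPKM with thalidomide and 42.6 with vehicle. The most abundant were CDH5, the cadherin of endothelial junctions, with 10.6 and 13.9 FPKM, and PECAM1 with 10.02 and 12.2 FPKM. KDR, the VEGF receptor, was the one higher beyond its limits (4.11 FPKM with thalidomide and 3.64 with vehicle, 0.14 ± 0.04). The part of endothelium in the MEF2C value was not tested.

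TMEM8C, the membrane protein required for myoblast fusion, had the lowest log2 ratio of the group. It had 1.96 FPKM with thalidomide (1.51 to 2.403), against 3.002 FPKM with vehicle (2.44 to 3.56). The limits were only 0.036 FPKM apart, and they rested on about 76 fragments with thalidomide and 114 with vehicle, the fewest of the 7 genes. The log2 ratio was −0.44 ± 0.15, and without the added 1 the FPKM was 1.54-fold lower. Of all genes kept, 3.05% had a lower ratio. After rescaling to the same total the ratio was −0.40 ± 0.18 and the limits overlapped. TMEM8C lies on chromosome 17 from 6958313 to 6965254.

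ACTC1, the alpha-actin of heart and of embryonic skeletal muscle, was the most abundant of the genes and the one measured most precisely. It had 26.4 FPKM with thalidomide (25.5 to 27.2), against 35.8 FPKM with vehicle (34.8 to 36.8). The limits were 7.59 FPKM apart, with about 3966 and 4924 fragments behind the values. The log2 ratio was −0.43 ± 0.03, a level 1.35-fold lower on the FPKM + 1 scale, and 3.33% of all genes kept had a lower ratio. After rescaling, ACTC1 alone of the 7 genes was still lower beyond its limits (−0.29 ± 0.03), and PAX3 was the one higher beyond its limits (0.24 ± 0.06). In galGal4 it lies on chromosome 5 from 31546121 to 31552902.

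Vertebrate muscle actins are nearly identical in protein and similar in coding sequence. Fragments of ACTC1 and of other actin genes may have been divided between them, and the ACTC1 value is uncertain to that extent. Such a division was not tested. ACTA1, the alpha-actin of adult skeletal muscle, had 6.06 FPKM with thalidomide and 6.89 with vehicle (−0.16 ± 0.10), with overlapping limits. ACTC1 is also a heart gene. All 5 heart markers found in the files were below 1 FPKM in both libraries, and they summed to 0.897 FPKM with thalidomide and 1.17 with vehicle. Among smooth muscle markers TAGLN, an actin-binding protein, had 34.1 and 37.7 FPKM (−0.14 ± 0.05, overlapping limits). The smooth muscle myosin MYH11 and the coactivator MYOCD were below 1 FPKM in both. MYOCD was higher beyond its limits, with 0.866 FPKM with thalidomide and 0.569 with vehicle. The 3 markers summed to 35.6 FPKM with thalidomide and 38.9 with vehicle, most of it TAGLN.

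**Figure D2:**
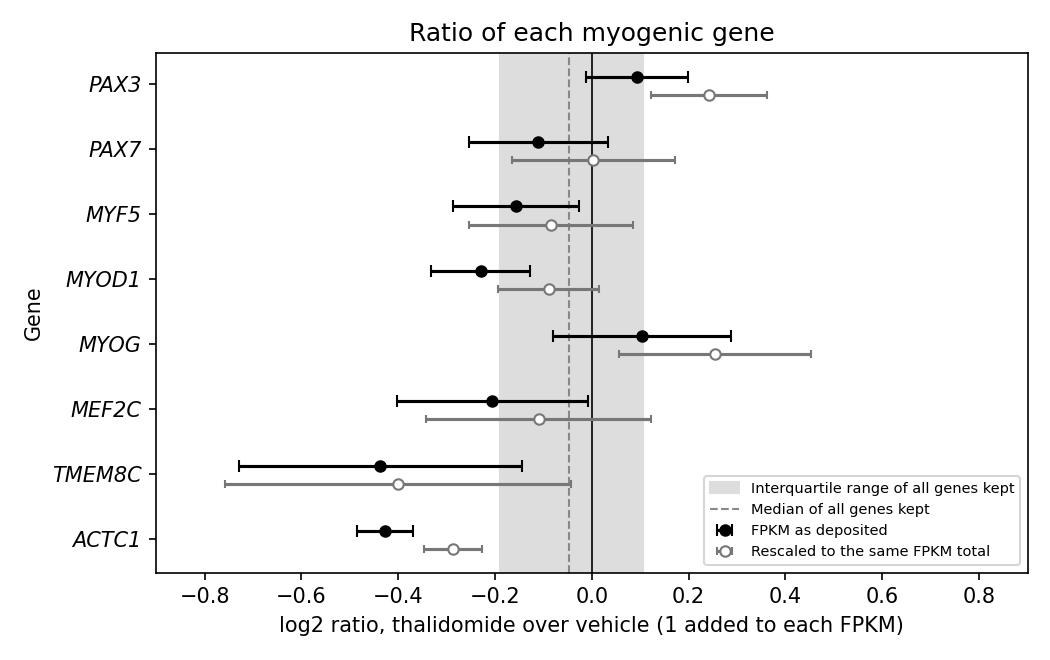
Log2 ratio of thalidomide over vehicle for each gene, with 95% intervals propagated from the deposited limits. Black points use FPKM as deposited, open points use libraries brought to a common FPKM total. The grey band is the interquartile range of all genes kept and the dashed line their median. TMEM8C (−0.44) and ACTC1 (−0.43) lie furthest left of the band, and MYOD1 (−0.23) and MEF2C (−0.21) also lie left of it. MYOG (0.10) and PAX3 (0.09) lie near its right edge. Rescaling moves the points to the right.

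The rescaling to a common total raised the median log2 ratio of all genes by 0.14, and the background moved to 9.65% lower and 29.9% higher beyond their limits. Ratios of ACTC1, TMEM8C, MYOD1, MYF5 and MEF2C were below 0 and those of PAX3 and MYOG above 0 under every alternative that gave a value, while PAX7 was above 0 under both rescalings. These rescalings can only raise a ratio that is above 0, so PAX3 and MYOG could not turn. A pseudocount or a filter cannot change the sign of a ratio. Unsummed loci cannot alter these genes, which have 1 locus each. Only the rescalings and the centring could have turned a ratio below 0. Without mitochondrial and haemoglobin genes in the totals, the ratios of MYOD1 (−0.05 ± 0.05), MYF5 (−0.05 ± 0.09) and MEF2C (−0.08 ± 0.12) lay within their error of 0. The median of all genes kept was then 0.13, above each of these ratios. The distance of the ratios from 0 and the number of genes beyond their limits thus rested on the scaling.

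The order of levels was nearly the same in both libraries. Per length, ACTC1 stood above MYOD1, MYOD1 above MYOG and MYOG above PAX3, each apart from the next by its limits. ACTC1 was 1.54 times MYOD1 with thalidomide and 1.77 times with vehicle, while MYOD1 was 2.204 times MYOG with thalidomide and 2.83 times with vehicle. Below PAX3 the order was PAX7, MEF2C, TMEM8C and MYF5 with thalidomide, and each of these overlapped its neighbour. With vehicle the order was MEF2C, PAX7, TMEM8C and MYF5, of which TMEM8C and MYF5 were apart.

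Levels were also divided by that of MYOD1 in the same library, which frees them of any difference in scaling between the libraries. PAX3 was 0.254 ± 0.011 of MYOD1 with thalidomide and 0.198 ± 0.0085 with vehicle (± is the propagated error), a log2 difference of 0.36 with a 95% interval of 0.19 to 0.53. MYOG was 0.454 ± 0.026 of MYOD1 with thalidomide and 0.354 ± 0.021 with vehicle, a log2 difference of 0.36 (0.12 to 0.60). Relative to MYOD1, PAX3 and MYOG were thus higher with thalidomide, as most genes were. ACTC1 was 1.54 ± 0.049 times MYOD1 with thalidomide and 1.77 ± 0.053 times with vehicle (−0.20, −0.32 to −0.08). For TMEM8C (−0.38, −0.81 to 0.06), MYF5 (−0.02, −0.25 to 0.22), MEF2C (−0.03, −0.32 to 0.25) and PAX7 (0.10, −0.12 to 0.31) the interval included 0. These intervals hold counting and assignment error only, and MYOD1 itself was lower with thalidomide. Of all genes kept, 18.8% had a lower ratio than MYOD1, so most genes were higher relative to it. Without the added 1, MYOD1 had −0.24 and the median of all genes was −0.055. A rise relative to MYOD1 is therefore not particular to PAX3 and MYOG.

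**Figure D3:**
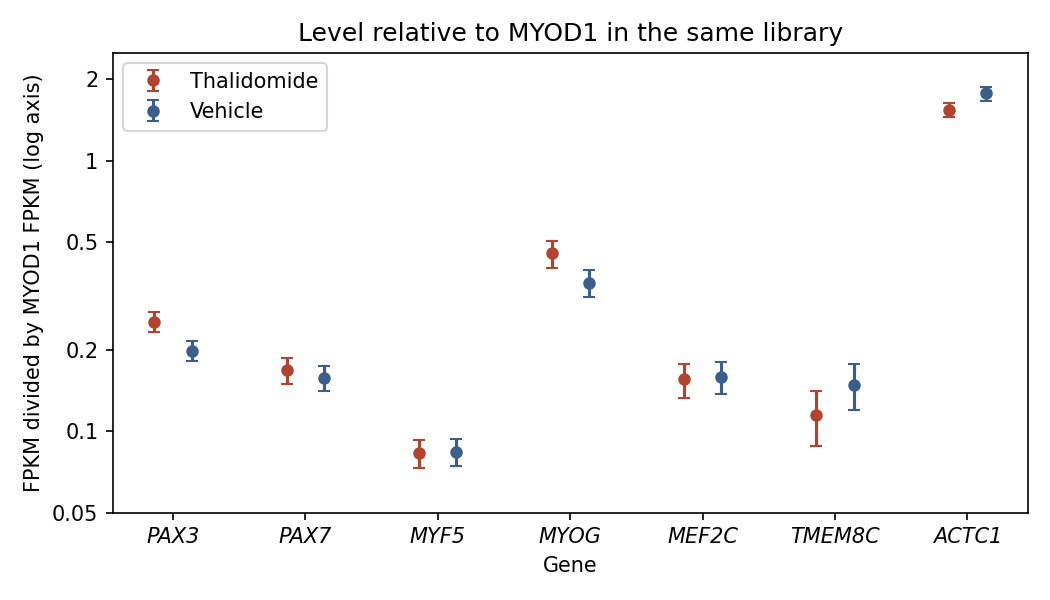
FPKM of each gene divided by that of MYOD1 in the same library (log axis), for thalidomide (red, left) and vehicle (blue, right); bars are 95% intervals propagated from the deposited limits. PAX3 (0.254 with thalidomide, 0.198 with vehicle) and MYOG (0.454 and 0.354) are higher relative to MYOD1 with thalidomide, ACTC1 (1.54 and 1.77) is lower, and the bars of MYF5 and MEF2C overlap almost fully. The ratio of MYOD1 itself was below that of most genes, which are therefore higher relative to it.

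Beyond these genes, 7 lists of genes that act with them were examined. Of 179 entries 146 were in the files and 114 passed the filter. Ratios were below 0 for 69.3% of the 114, against 59.0% of all genes kept. Beyond their limits 29.8% were lower and 9.65% higher, beside the 26.9% and 15.5% of all genes. The counts of each list below are as deposited and stand against these same shares. After rescaling, the shares of all genes were 9.65% lower and 29.9% higher. The median of the 114 was −0.07, close to that of all genes. After rescaling, the medians of 6 lists turned above 0, and that of E proteins and cofactors was above 0 throughout. The median of all genes kept was then 0.089. Of the 6 lists only precursor specification (0.11) had a median above it. Of the 45 list genes beyond their limits, 6 that were lower as deposited had ratios above 0 after rescaling, for example FGFR1 with −0.09 as deposited and 0.06 rescaled. Rescaling raises ratios by construction, except for some low genes that were lower with thalidomide. CHRND, for example, had −0.40 as deposited and −0.49 rescaled. The share of all genes that turned above 0 was not counted.

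Among 19 genes of precursor specification (median −0.03), 5 were lower and 0 higher beyond their limits, beside 26.9% and 15.5% of all genes kept. DACH1, a transcriptional cofactor of the EYA proteins, had 5.33 FPKM with thalidomide and 8.44 with vehicle (−0.58 ± 0.04). The highest ratios, SIX4 (0.05 ± 0.05) and GLI2 (0.04 ± 0.03), were near 0 with overlapping limits. Limits overlapped for 14 of the 19, as they did for PAX3 and PAX7.

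Genes of migration and of signals to precursors numbered 17 (median −0.09). Beyond their limits 7 were lower and 1 higher, beside 26.9% and 15.5% of all genes kept. FGFR4, the FGF receptor of limb muscle progenitors, had 50.8 FPKM with thalidomide and 77.9 with vehicle (−0.61 ± 0.03). It was the one gene of the 7 lists at least 1.5-fold lower on the FPKM + 1 scale, 1 of 114, beside 0.972% of all genes kept. Without the added 1, DACH1 and CHRND were also 1.5-fold lower, but the share of all genes on that scale is not given here. CHRND passed the filter only through its vehicle value. CDH11, a cadherin of mesenchyme, had −0.30 ± 0.01, and ITGA9, an integrin, was the one higher beyond its limits (0.19 ± 0.06). c-met, the receptor for the scatter factor HGF that lets PAX3 cells leave the somite, had 1.37 FPKM with thalidomide and 1.18 with vehicle (0.12 ± 0.07), and its limits overlapped.

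The list of E proteins, which pair with the myogenic factors, and of other cofactors had the one median above 0, at 0.13 over 16 genes. Of these, 6 were higher and 2 lower beyond their limits, beside 15.5% and 26.9% of all genes kept. MKL2, a coactivator of SRF, had 3.75 FPKM with thalidomide and 2.85 with vehicle (0.30 ± 0.06), and the E protein gene TCF4 had 6.20 and 5.12 FPKM (0.23 ± 0.06). The 2 lower genes were SRF, the factor that binds actin promoters, with 44.7 FPKM with thalidomide and 55.7 with vehicle (−0.31 ± 0.05), and the E protein gene TCF12 (−0.23 ± 0.04). SRF and ACTC1 were both lower with thalidomide beyond their limits, while the limits of ACTA1 overlapped and MKL2 was higher. A link between these genes was not tested.

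Among 18 inhibitors of myogenesis (median −0.09), 9 were lower and 1 higher beyond their limits, beside 26.9% and 15.5% of all genes kept. MSX2 and TWIST1, factors of limb mesenchyme that hold back MYOD1, had −0.56 ± 0.04 and −0.50 ± 0.04. HDAC4, a deacetylase that represses MEF2 factors, had 0.26 ± 0.05, and the receptor gene NOTCH1 had 0.06 ± 0.03. The part of mesenchyme in the values of MSX2 and TWIST1 was not tested. The 6 limb mesenchyme markers summed to 437 FPKM with thalidomide and 535 with vehicle, 3 of them lower and 3 higher beyond their limits. Some of these markers, TWIST1 included, are also in the list of inhibitors. Mesenchyme markers thus had ratios of both signs.

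Fusion and junction genes other than TMEM8C numbered 11 (median −0.11). Beyond their limits 6 were lower and 2 higher, beside 26.9% and 15.5% of all genes kept. JAM3, an adhesion molecule, had 23.1 FPKM with thalidomide and 29.4 with vehicle (−0.34 ± 0.03), and the integrin chain gene ITGB1 had −0.31 ± 0.02. NFATC2 and ELMO1 both had 0.18. These genes are expressed in many limb bud cells besides myoblasts.

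Of 50 sarcomere genes listed besides ACTC1, 38 were in the files and 19 of those were below 1 FPKM in both libraries. Of the 19 that passed, 16 had ratios below 0 (median −0.10), yet 17 had overlapping limits. Over all genes kept, 59.0% had ratios below 0 and 26.9% were lower beyond their limits. The 2 that were lower beyond their limits were Myl2, a myosin light chain annotated at 2 loci that were summed, with 3.79 FPKM with thalidomide and 5.40 with vehicle (−0.42 ± 0.13), and DES, the intermediate filament protein desmin, with 7.13 and 8.84 FPKM (−0.28 ± 0.09). TNNC1, troponin C of slow and heart muscle, had −0.30 ± 0.13 with overlapping limits. MB, myoglobin, had 0.12 ± 0.16 and MYH7B, a myosin heavy chain, 0.09 ± 0.06. The ratio of Myl2 lay within its error of that of ACTC1 (−0.43). After rescaling Myl2 had −0.33 and ACTC1 −0.29, but the limits of Myl2 then overlapped, unlike those of ACTC1.

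Genes of excitation and the neuromuscular junction numbered 14 (median −0.13). Beyond their limits 3 were lower and 1 higher, beside 26.9% and 15.5% of all genes kept. CHRND, a subunit of the muscle acetylcholine receptor, had 0.604 FPKM with thalidomide and 1.11 with vehicle (−0.40 ± 0.13). It passed the filter only through its vehicle value, which favours a ratio below 0, and its limits overlapped after rescaling. The sarcoglycan gene SGCD had 4.003 and 5.42 FPKM (−0.36 ± 0.07). RAPSN, which clusters the receptor, went the other way, with 3.19 FPKM with thalidomide and 2.38 with vehicle (0.31 ± 0.11). DTNA had 0.11 ± 0.06. Genes of this list thus had ratios of both signs.

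**Figure D4:**
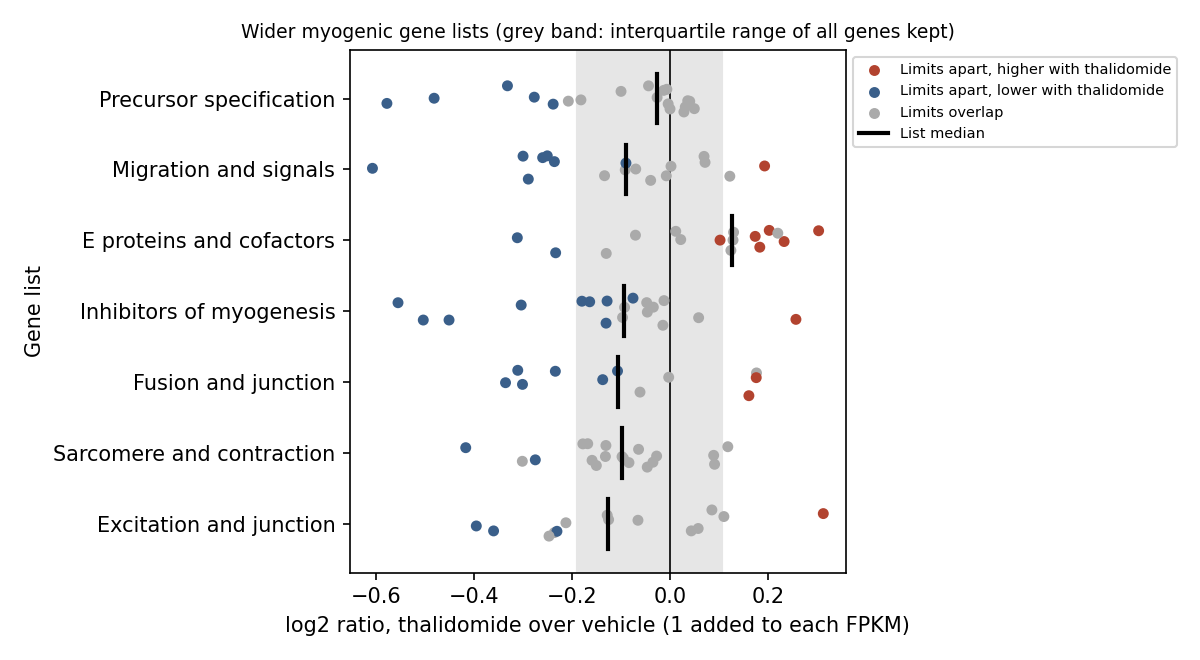
Log2 ratio of thalidomide over vehicle for each gene of the 7 lists that passed the filter; the vertical position within a list is random. Red points were higher and blue points lower with thalidomide with limits that did not overlap, grey points overlapped, black bars are list medians, and the grey band is the interquartile range of all genes kept. Medians lie between −0.13 and 0.13, and FGFR4 (−0.61) is the leftmost point.

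Summed levels of markers of other cells in the bud differed as well. The FPKM values of all genes summed to 384280 with thalidomide and 426632 with vehicle. Blood markers summed to 360.02 FPKM with thalidomide and 266 with vehicle. Beyond their limits 3 of 4 were higher, beside 15.5% of all genes kept. The most abundant, HBAA and HBE, are globins with 193 and 88.1 FPKM with thalidomide, against 137 and 70.3 with vehicle. Melanoblast markers summed to 18.8 and 16.2 FPKM, and after MITF the most abundant was PMEL (3.67 and 4.58 FPKM). Neural markers summed to 70.2 FPKM with thalidomide and 84.96 with vehicle, led by TUBB3 (58.6 and 71.5 FPKM) and ELAVL4 (6.37 and 8.20 FPKM). Ectoderm markers summed to 42.04 and 48.4 FPKM, led by EPCAM (19.8 and 23.2) and CDH1 (9.94 and 11.5). Of the 4 ectoderm markers that passed the filter, 2 were lower beyond their limits and 2 overlapped, as for the neural markers. Of all genes kept, 26.9% were lower in this way. Markers of somite derivatives other than muscle summed to 18.5 and 21.1 FPKM, led by PAX1 (8.76 and 10.3) and Pax-9 (7.62 and 8.004). All 3 of these somite markers that passed the filter had overlapping limits. No marker of these lists was at 0 in either library. Without MITF the other 5 melanoblast markers summed to 7.99 FPKM with thalidomide and 8.68 with vehicle. Sums of most lists were lower with thalidomide, as was the FPKM sum of all genes. That of blood was higher and that of melanoblasts was higher through MITF alone. The part of these cells in the values of the myogenic genes was not tested.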

How the data were processed

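RNA from 1 thalidomide and 1 vehicle sample of chick limb bud was sequenced, and the authors deposited 1 gene table per library, in FPKM with lower and upper confidence limits per the file headers. Named in the submitters' processing notes are Cufflinks 2.2.1, Cuffdiff, STAR 2.4.2a, bcl2fastq and the assembly galGal4. What each did, the annotation release, strandedness and the treatment of fragments that map to several genes were not given in the sources used here. Because FPKM values are not counts, tests made for counts were not used.

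Rows sharing a symbol, ignoring case, were summed, and genes with 1 FPKM in at least 1 library were kept. The upper limit was taken to lie 2 SD above the FPKM, which gave errors and inferred fragments; uncertain assignment widens limits, so fragments may be too few. The calculations used Python 3.11.15, numpy 2.4.6, pandas 2.3.3 and matplotlib 3.10.9, and the log2 ratio was tested on simulated data. The simulated libraries shared 1 scale and took their limits from the same 2 SD rule. They could therefore not check the scaling between the libraries or that rule. A gene was beyond its limits when those of the libraries did not overlap. Starts were raised by 1, because end minus start equalled the RefSeq length (GRCg7b) in 9 of 12 mitochondrial genes, so the files count from 0. Older symbols came from the same RefSeq table; no sequence was used.

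The genes and lists were chosen with earlier results of these data known. From each list of genes that passed the filter, the 2 highest and 2 lowest ratios were named, and the 2 most abundant of lists for other cells; 1 gene so chosen is not reported here, and TAGLN alone of its list passed. ACTA1, MYH11, MYOCD, MYF6, SOX10, KDR, FGFR1, TBX5, TBX4 and DES were named after their values were seen. Alternatives were pseudocounts of 0.1 and 0, a stricter filter (5 FPKM) or none, 2 rescalings, centring on the all-gene median, and unsummed loci. Counting PAX7 was added after the data were seen.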

Additional observations from a re-analysis of the deposited data

How the results depend on the processing

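No paired analysis was possible because each treatment has 1 library. The rescalings, to the same FPKM total and to the total without mitochondrial and haemoglobin genes, moved most values. In that order, the number of genes lower beyond their limits was 1 and 1 (3 as deposited), the number higher 1 and 2 (0 as deposited), and the median of the 7 genes −0.090 and −0.055. The median of all genes kept was 0.089 and 0.13 (−0.048 as deposited). Of all genes that passed the filter, 9.65% and 7.14% were lower in this way (26.9% as deposited). Those higher were 29.9% and 34.8% (15.5% as deposited). PAX3 had 0.24 and 0.28, MYOD1 −0.090 and −0.052, and ACTC1 −0.29 and −0.25. Without mitochondrial and haemoglobin genes PAX7 had 0.038 and MYOG 0.29. List medians, in the same order, were 0.11 and 0.15 for precursor specification, 0.068 and 0.11 for migration, 0.28 and 0.31 for E proteins and cofactors, 0.024 and 0.061 for inhibitors, 0.042 and 0.081 for fusion, 0.015 and 0.040 for sarcomere, and 0.016 and 0.057 for excitation. Centring gave medians of 0.021 for precursor specification, −0.042 for migration, 0.17 for E proteins and cofactors, −0.047 for inhibitors and −0.059 for fusion. Rescaling shifts ratios by construction; it also makes the added 1 smaller beside each FPKM and lets 11985 genes pass the filter, so genes do not move by equal amounts. A filter of 5 FPKM, which fewer genes pass, gave −0.13 for migration, −0.19 for fusion and −0.23 for excitation, and no filter gave −0.0037 for excitation. With a pseudocount of 0.1 or none, 1 gene (TMEM8C) was at least 1.5-fold lower, and the share of all genes at these settings is not given here. In all, 121 of 160 alternative values stayed within the 95% interval of the main value or within 1.5 times the count. Many of these could not move. A filter leaves the ratio of a single gene as it is, and unsummed loci do so for genes with 1 locus. The tally is therefore no measure of how stable the values are. Of the 7 genes, none that was beyond its limits as deposited changed sign, but 6 of 45 such list genes did when rescaled to the same total. The share of all genes that did so was not counted. The depth limits TMEM8C most, whose limits lay 22.9% from the value with thalidomide and 18.7% with vehicle; for ACTC1 they lay 3.18% and 2.85% away. One library per treatment limits every statement to these libraries.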
